A study of Mus musculus with 8 samples.

Results

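The mRNA decay machinery was followed through 45 genes that carry out deadenylation, decapping, 5′-3′ and 3′-5′ degradation and nonsense-mediated decay, out of 14942 genes tested in mast cells. The genes were taken by symbol from a list with 8 arms: 11 subunits of the CCR4-NOT complex, 3 other deadenylases, 3 antiproliferative proteins that recruit deadenylases, 8 decapping factors, 2 5′-3′ exonucleases, 10 genes of the exosome and the Ski helicase, 6 nonsense-mediated decay factors and 2 poly(A) binding proteins. All 45 passed the filter on low counts, and the lowest mean in Pulsed cells was 12.2 CPM (counts scaled to a library of 1000000). Bone marrow derived mast cells (BMMCs) were grown in vitro from 4 mice. The study took marrow from C57Bl/6 mice aged 6 to 8 weeks and grew the cells in IL-3. The 4 Mettl3-RNP libraries, whose genotype label reads Mettl3 KO, came from cells transfected with Cas9 ribonucleoproteins against Mettl3. The 4 Pulsed libraries came from mock-transfected cells that received no ribonucleoprotein. The transfected cultures were not sorted and still held untargeted cells, so every Mettl3-RNP value is an average over both kinds of cell.

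Most cytoplasmic mRNAs lose their poly(A) tail first, through the PAN2-PAN3 and CCR4-NOT deadenylases, and are then either decapped by DCP2 and degraded from the 5′ end by XRN1 or degraded from the 3′ end by the exosome with the Ski helicase. Nonsense-mediated decay is a surveillance route in which UPF1 and the SMG proteins direct transcripts with an early stop codon, or with an exon junction far downstream of the stop, into the same enzymes. Mettl3 supplies the catalytic activity of the complex that deposits N6-methyladenosine (m6A) on mRNA, and m6A-marked transcripts are known to be brought to CCR4-NOT by YTHDF2. In mast cells, mRNA turnover limits how long cytokine transcripts persist.

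Guide RNAs listed by the study for Mettl3 were placed on the genome to show where each would cut the gene, with the PAM, the bases next to the target that Cas9 requires, in capitals. Which of them were used for these libraries is not given in the sources used here.
crRNA_Mettl3_1: cacgggactatcactacggaAGG
crRNA_Mettl3_2-HDR: ggacacgtggagctctatccAGG
crRNA_Mettl3_3-HDR: gatggggtaaccaacaatcgAGG
In GRCm39 the first lies at chr14:52537803-52537822 on the plus strand, in coding sequence of exon 2. The second lies at chr14:52542420-52542439 on the minus strand, in coding sequence of exon 1, and the third at chr14:52542216-52542235, outside the exons of the canonical transcript. Mettl3 itself was at 12.3, 9.18, 4.88 and 9.21 CPM in Mettl3-RNP libraries 1 to 4 and at 25.9, 24.5, 11.2 and 26.5 CPM in Pulsed libraries 1 to 4. It was lower in each of the 4 pairs of libraries that share a replicate number, although Mettl3-RNP library 1 lay above Pulsed library 3. The log2 fold change was -1.30 (SE 0.109, adjusted p = 0.0054), which leaves 40.5% of the Pulsed level. A gene cut by Cas9 can still be transcribed with its reading frame broken, so this level is not a measure of functional mRNA. Tox4 overlaps Mettl3 on the other strand and had a log2 fold change of 0.06 (adjusted p = 0.641).

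Library totals ranged from 32643260 to 45324826 counts, and 21871 to 28483 gene IDs had a count, the most in Mettl3-RNP library 2. The 8 mast cell markers were all present, with a summed level of 38255 to 53996 CPM in Mettl3-RNP and 43247 to 60948 CPM in Pulsed cells, and 1 of them, the protease gene Cpa3, passed the test at a log2 fold change of -0.37 (adjusted p = 0.033). Of 6 neutrophil markers, S100a8, S100a9, Elane and Camp had no count in any library, and the 6 summed to at most 0.224 CPM. The 5 macrophage markers summed to 7.11 to 35.9 CPM in Mettl3-RNP and 9.42 to 15.1 CPM in Pulsed cells, with Csf1r and C1qa too low to test. Adgre1 was lower at a log2 fold change of -1.13 (adjusted p = 0.044), from a mean of 2.53 to 1.18 CPM. Cd68 was at 3.71, 23.8, 11.1 and 28.3 CPM in Mettl3-RNP and 5.01, 3.16, 6.56 and 3.26 CPM in Pulsed libraries 1 to 4, above its partner in 3 of 4 pairs at a log2 fold change of 1.63 (adjusted p = 0.142), and Lyz2 was at 0.02. The 3 genes listed as basophil markers summed to 510 to 823 CPM against 500.0 to 627 CPM. Nearly all of it came from Cd200r3 (log2 fold change 0.25, adjusted p = 0.151), so this sum rests on 1 gene and is no measure of basophils. Mcpt8 and Prss34 had means of at most 2.56 CPM. They lay below their partners in all 4 pairs at -0.42 and -0.68 (adjusted p = 0.267 and 0.299). The 5 erythroid markers summed to 5.52 to 10.7 CPM against 6.49 to 9.37 CPM, with Hba-a1 lower in all 4 pairs at -0.95 (means of 1.82 and 3.43 CPM, adjusted p = 0.085) and Epor at 0.38 (adjusted p = 0.278), and the 3 lymphocyte markers to at most 1.17 CPM. The part of these cells in the results was not tested. In bulk RNA, fewer cells of a type and less RNA per cell cannot be told apart.

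The decay machinery was close to its Pulsed level after Mettl3 targeting. A single member, the exosome subunit Exosc5, passed an adjusted p of 0.05, with a log2 fold change of -0.36, and none reached a 1.5-fold change as well. That is 1 of 45 members (2.22%), beside 559 of all 14942 tested genes, or 3.74%, with 2.35% higher in Mettl3-RNP and 1.39% lower. At that adjusted p together with a fold change of 1.5, 2.06% of tested genes passed. Fitted log2 fold changes of the members ran from -0.40 (Pabpc1) to 0.32 (Exosc4). The standard error of a member was between 0.063 and 0.146 on the log2 scale, and for 44 of 45 members the 95% interval lay inside a 1.5-fold change in either direction. The exception was Pabpc1, whose interval ran from -0.65 to -0.14. At an unadjusted p under 0.05 there were 10 members lower (22.2%) and 2 higher (4.44%), where the shares over all tested genes were 10.7% and 11.8%.

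The median log2 fold change over the members was -0.07, beside -0.0013 over all tested genes and -0.01 over the 8504 tested genes whose mean reached 10 CPM, a level all members share and of which 5.07% passed an adjusted p of 0.05. The median by pair was 0.00057 in pair 1, -0.12 in pair 2, -0.08 in pair 3 and -0.04 in pair 4. Fitted values lay below 0 for 27 members (60.0%), beside 50.2% of tested genes. Members below their Pulsed partner in all 4 pairs numbered 15 (33.3%), beside 16.0% of tested genes and 19.1% of those at 10 CPM or more. Members above it in all 4 pairs were Cnot8, Tob1 and Exosc4 (6.67%), beside 15.7% of tested genes and 19.3% of those at 10 CPM or more. The groups did not overlap for Cnot10, Pabpc1 and Exosc4 (6.67% of members), and 3.23% of tested genes showed such a gap in either direction.

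**Figure D1:**
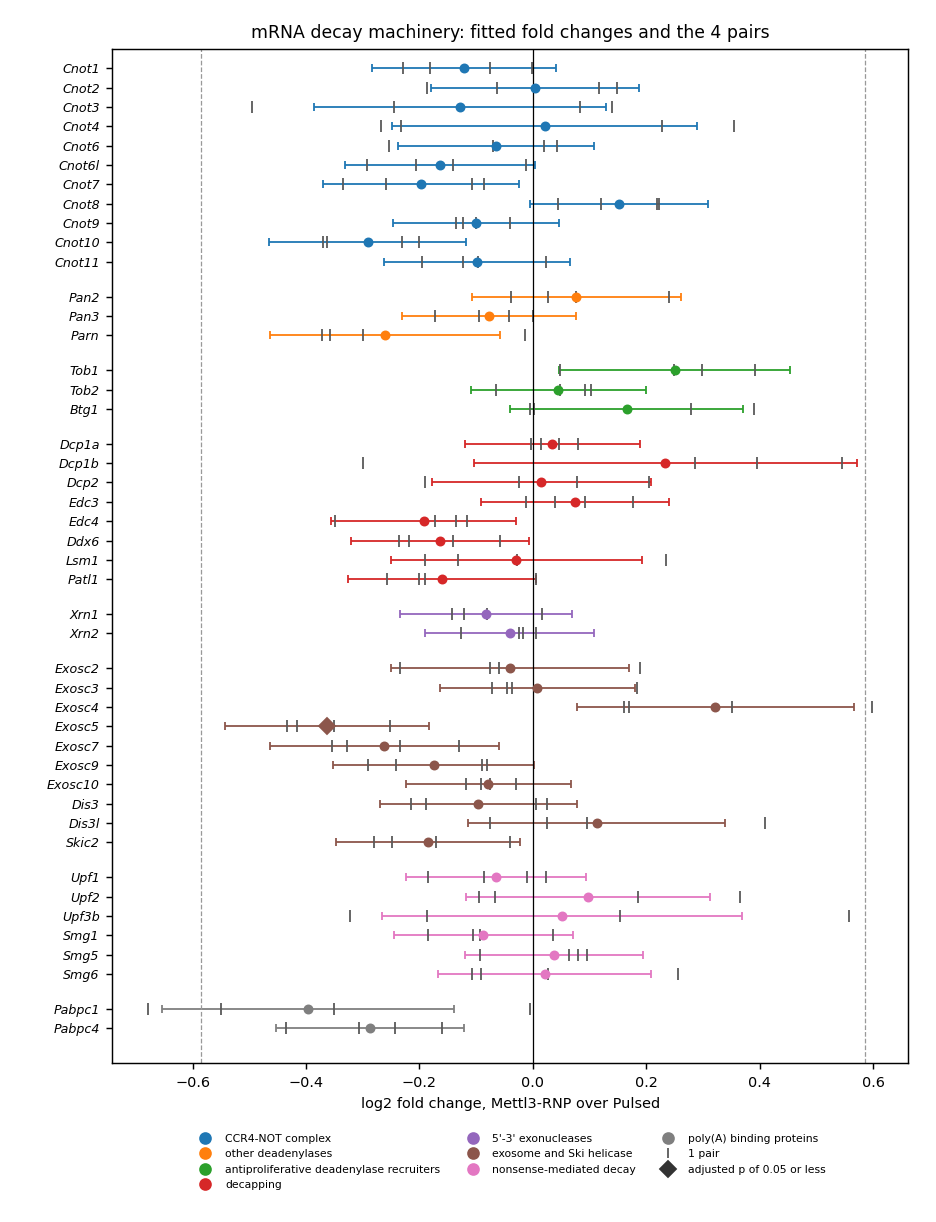
Log2 fold change (x axis) of each of the 45 decay genes, Mettl3-RNP over Pulsed, grouped by arm; points with bars are the fitted value and its 95% interval, grey ticks the 4 pairs, dashed lines a 1.5-fold change, and the diamond marks an adjusted p of 0.05 or less. Only Exosc5 carries the diamond, and the interval of Pabpc1 alone crosses a dashed line.

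CCR4-NOT is the main cytoplasmic deadenylase, built on the scaffold Cnot1. None of its 11 measured subunits passed the test. Their median log2 fold change was -0.10, 8 of 11 had a fitted value below 0, and 5 were lower in all 4 pairs. Over all tested genes, 3.74% were called, 50.2% had a fitted value below 0 and 16.0% were lower in all 4 pairs (19.1% at 10 CPM or more). The same shares stand beside the counts of the arms below. Cnot10, which with Cnot11 forms a module at the N-terminal end of the scaffold, had the largest difference of the arm, at 32.1, 25.5, 29.8 and 25.7 CPM in Mettl3-RNP libraries 1 to 4 and 36.9, 32.8, 34.9 and 33.2 CPM in Pulsed libraries 1 to 4. Each Mettl3-RNP library lay below all Pulsed libraries. The log2 fold change was -0.29 (SE 0.075, adjusted p = 0.071), with an interval from -0.46 to -0.12. Its partner Cnot11 was at -0.10 (adjusted p = 0.472).

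The nuclease subunits of CCR4-NOT come as related pairs, Cnot7 or Cnot8 and Cnot6 or Cnot6l. Cnot7 was at 32.5, 36.0, 64.3 and 31.0 CPM in Mettl3-RNP and 35.0, 38.2, 77.0 and 39.1 CPM in Pulsed libraries 1 to 4. Cnot8 was at 71.3, 62.6, 78.3 and 67.5 CPM in Mettl3-RNP and 61.1, 60.7, 67.3 and 62.1 CPM in Pulsed libraries 1 to 4. Cnot7 was the lower of each pair of libraries in Mettl3-RNP cells and Cnot8 the higher, while the ranges of the groups overlapped for both. Their log2 fold changes were -0.20 (adjusted p = 0.169) and 0.15 (adjusted p = 0.234). Exons of Cnot7 share 31.8% of their bases with Vps37a and Zdhhc2 on the opposite strand, which had log2 fold changes of -0.02 and 0.18. Cnot6 and Cnot6l were at -0.07 and -0.16 (adjusted p = 0.667 and 0.233). The scaffold Cnot1 was at 221 to 287 CPM in Mettl3-RNP and 248 to 302 CPM in Pulsed cells, a log2 fold change of -0.12 (adjusted p = 0.355). Cnot2 and Cnot3, which form the NOT module with the end of the scaffold, were at 0.0037 and -0.13, Cnot4, a ubiquitin ligase, at 0.02, and Cnot9, which binds recruiting proteins, at -0.10, all with an adjusted p of 0.407 or more.

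**Figure D2:**
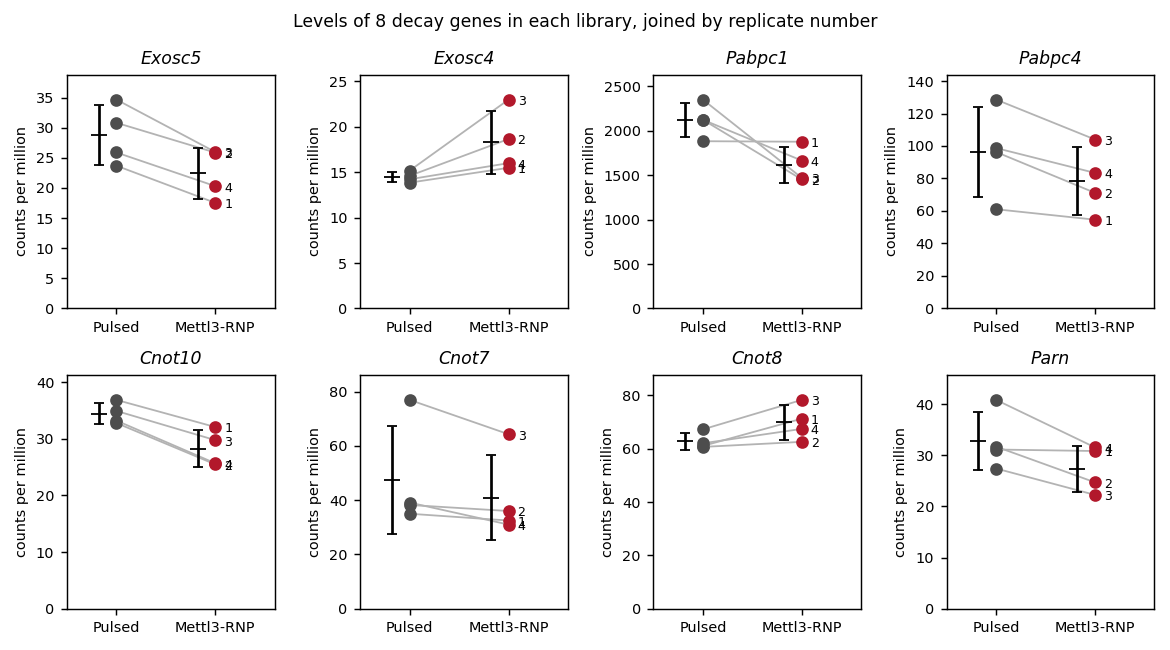
CPM (y axis, from 0) of 8 decay genes in the 4 Pulsed and 4 Mettl3-RNP libraries, joined by replicate number, with the mean and SD of each group beside the points. All 4 lines slope down for Exosc5, Cnot10, Cnot7 and Pabpc4 and up for Exosc4 and Cnot8, and for Pabpc1 and Parn the line of pair 1 is nearly level while the other lines slope down.

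Among the other deadenylases, the poly(A)-specific ribonuclease Parn, which trims tails of mRNAs and of small nuclear and nucleolar RNAs, had the largest difference. It was at 30.8, 24.7, 22.2 and 31.5 CPM in Mettl3-RNP and 31.1, 31.7, 27.4 and 40.8 CPM in Pulsed libraries 1 to 4. Pair 1 was nearly level and the other 3 pairs were lower, and the groups overlapped. The log2 fold change was -0.26 (SE 0.088, adjusted p = 0.129). Pan2, the nuclease that makes the first cuts into the tail, was at 26.4 to 39.4 CPM and 27.1 to 33.3 CPM, with a log2 fold change of 0.08 (adjusted p = 0.630), and its partner Pan3 was at -0.08 (adjusted p = 0.553).

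The antiproliferative proteins Tob1, Tob2 and Btg1 link CCR4-NOT nucleases to poly(A) binding protein and to specific transcripts. None of the 3 passed the test, and each had a fitted value above 0. Tob1 was at 29.8, 26.4, 15.5 and 27.8 CPM in Mettl3-RNP and 25.1, 21.4, 14.9 and 21.2 CPM in Pulsed libraries 1 to 4. It was higher in all 4 pairs with overlapping groups, at a log2 fold change of 0.25 (SE 0.088, adjusted p = 0.144). Btg1 was at 811, 953, 3469 and 352 CPM in Mettl3-RNP and 810, 785, 3483 and 269 CPM in Pulsed libraries 1 to 4. The difference between replicate numbers was thus far larger than that between groups, whose log2 fold change was 0.17 (adjusted p = 0.319). Tob2 was at 0.04 (adjusted p = 0.751).

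Decapping removes the cap and exposes the 5′ end. None of the 8 decapping genes passed the test, 4 had a fitted value below 0, and the median was -0.0070. Dcp2, the decapping enzyme, was at 42.3, 46.1, 27.5 and 45.6 CPM in Mettl3-RNP and 48.2, 43.7, 23.8 and 46.3 CPM in Pulsed libraries 1 to 4. Pairs went in both directions, and the log2 fold change of 0.02 had an interval from -0.18 to 0.21 (adjusted p = 0.938). Dcp1b, one of the activating partners of Dcp2, had the largest fitted value of the arm at 0.23, but pair 3 went the other way and the interval ran from -0.10 to 0.57 (adjusted p = 0.398). Edc4, the scaffold of the decapping complex, and the helicase Ddx6 were lower in all 4 pairs, at -0.19 (adjusted p = 0.158) and -0.16 (adjusted p = 0.206). Ddx6 was at 321, 366, 593 and 317 CPM in Mettl3-RNP and 353, 426, 618 and 374 CPM in Pulsed libraries 1 to 4, with replicate 3 the highest in both groups. Patl1, which bridges Ddx6 and the Lsm1-7 ring, was at -0.16, and Dcp1a, Edc3 and Lsm1 lay between -0.03 and 0.07. Neither exonuclease downstream of decapping passed the test. Xrn1, which degrades decapped mRNA in the cytoplasm, was at 71.5 to 92.6 CPM in Mettl3-RNP and 79.0 to 91.6 CPM in Pulsed cells, at a log2 fold change of -0.08 with an interval from -0.23 to 0.07 (adjusted p = 0.522). Its nuclear relative Xrn2 was at -0.04 with an interval from -0.19 to 0.11 (adjusted p = 0.766).

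The exosome is a ring of core subunits to which the nucleases Dis3 and Exosc10 attach. Exosc5, a core subunit (ENSMUSG00000061286, chr7:25358522-25374837, plus strand), was at 17.5, 25.9, 26.0 and 20.3 CPM in Mettl3-RNP and 23.7, 30.8, 34.7 and 25.9 CPM in Pulsed libraries 1 to 4. Every Mettl3-RNP library was below its Pulsed partner, while libraries 2 and 3 of Mettl3-RNP lay as high as the lower Pulsed libraries. The log2 fold change was -0.36 (SE 0.078, interval -0.54 to -0.18, adjusted p = 0.048), which is 77.7% of the Pulsed level. The call lay at the edge of the threshold. It was lost with library sizes alone (adjusted p = 0.066), with DESeq2 size factors (0.051), with a filter of 1 count (0.201) and without replicates 1, 2, 3 and 4 in turn (0.142, 0.154, 0.085 and 0.2002), and without the replicate block (0.999), while the log2 fold change stayed between -0.41 and -0.33. Exons annotated for Exosc5 share 30.1% of their bases with Tmem91 on the opposite strand, which had a mean of 0.796 CPM in Mettl3-RNP and 0.539 CPM in Pulsed cells.

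Exosc4, another core subunit, differed in the other direction, at 15.5, 18.6, 23.0 and 16.0 CPM in Mettl3-RNP and 13.8, 14.6, 15.2 and 14.2 CPM in Pulsed libraries 1 to 4. The groups did not overlap, and the Pulsed mean was 14.5 ± 0.566 CPM (SD, n = 4). The log2 fold change was 0.32 (SE 0.105, adjusted p = 0.123). Exons of Exosc4 share 18.6% of their bases with Oplah on the opposite strand, which had means of 1.93 CPM in Mettl3-RNP and 1.13 CPM in Pulsed cells, a log2 fold change of 0.77 (adjusted p = 0.166). The log2 ratio of Exosc4 to Exosc5, set side by side after their values were seen and not tested, was higher in Mettl3-RNP by 0.59, 0.60, 1.01 and 0.52 in pairs 1 to 4. Of the other core subunits, Exosc7 was at -0.26 (adjusted p = 0.128) and Exosc9 at -0.17 (adjusted p = 0.228), both lower in all 4 pairs, and Exosc2 and Exosc3 were at -0.04 and 0.0080. Exosc3 had the largest exonic share of any member in common with other genes, 50.7%, among them Dcaf10 on the opposite strand, which had means of 47.1 CPM in Mettl3-RNP and 39.8 CPM in Pulsed cells, a log2 fold change of 0.24 (adjusted p = 0.096). None of the nucleases passed the test. Dis3 was at 21.1, 39.9, 85.3 and 41.1 CPM in Mettl3-RNP and 21.0, 46.3, 97.3 and 40.4 CPM in Pulsed libraries 1 to 4, a log2 fold change of -0.10 (adjusted p = 0.509). Exosc10 was lower in all 4 pairs at -0.08 (adjusted p = 0.523), and the cytoplasmic form Dis3l was at 0.11 (adjusted p = 0.557). Skic2, the helicase that feeds mRNA into the cytoplasmic exosome, was lower in all 4 pairs at -0.18 (adjusted p = 0.171). Over the arm, 1 of 10 genes passed the test, beside 3.74% of all tested genes, 7 had a fitted value below 0, and the median was -0.09.

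Nonsense-mediated decay factors showed the smallest range of any arm with more than 2 genes. None of the 6 passed the test, none moved the same way in all 4 pairs, and fitted values lay between -0.09 (Smg1) and 0.10 (Upf2), with a median of 0.03. Upf1, the helicase at the centre of the route, was at 89.4, 99.8, 104 and 95.4 CPM in Mettl3-RNP and 87.9, 101, 118 and 101 CPM in Pulsed libraries 1 to 4. Its log2 fold change of -0.06 had an interval from -0.22 to 0.09 (adjusted p = 0.641). Smg6, the endonuclease that cuts near the stop codon, was at 106.6 to 141 CPM against 105 to 152 CPM, with a log2 fold change of 0.02 and an interval from -0.17 to 0.21 (adjusted p = 0.912). Upf2 was at 49.6, 39.2, 59.4 and 59.9 CPM in Mettl3-RNP and 43.6, 41.8, 62.2 and 46.4 CPM in Pulsed libraries 1 to 4 (adjusted p = 0.596). Upf3b, which ties UPF proteins to the exon junction complex, ranged from 45.3 to 80.1 CPM in Mettl3-RNP and from 54.4 to 60.9 CPM in Pulsed cells, and its interval was the widest of the arm, from -0.27 to 0.37. The kinase Smg1, which phosphorylates Upf1, and Smg5, which binds the phosphorylated form, were at -0.09 and 0.04.

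Transcripts known to be degraded by this route were followed as 11 genes (Gas5, Zfas1, Atf4, Gadd45a, Gadd45b, Ddit3, Tbl2 and 4 Snhg genes). None passed the test, beside 3.74% of all tested genes, a share that 11 genes are too few to tell from 0. A fitted value below 0 was found for 8, beside 50.2% of tested genes, and the median was -0.02. Exonic bases shared with other genes were 82.4% for Ddit3, 55.8% for Gadd45a and 39.1% for Snhg1, the largest shares of the list. The largest difference was that of Gadd45b, a stress-induced gene, at 7.83, 6.80, 16.6 and 3.93 CPM in Mettl3-RNP and 10.8, 9.03, 19.6 and 7.53 CPM in Pulsed libraries 1 to 4. It was lower in all 4 pairs at a log2 fold change of -0.50 (SE 0.133, adjusted p = 0.077).

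Poly(A) binding proteins coat the tail, protect it and stimulate its removal by deadenylases. Pabpc1 (ENSMUSG00000022283, chr15:36595902-36609912, minus strand) had the largest difference of all members, at 1876, 1451, 1469 and 1664 CPM in Mettl3-RNP and 1882, 2123, 2350 and 2123 CPM in Pulsed libraries 1 to 4. Pair 1 was level and the other 3 pairs were lower, and the highest Mettl3-RNP library lay just below the lowest Pulsed library. The log2 fold change was -0.40 (SE 0.111, adjusted p = 0.087), with pair differences of -0.0046, -0.55, -0.68 and -0.35. Without pair 1 it was -0.56 (adjusted p = 0.033), and it also passed with DESeq2 (adjusted p = 0.0093) and with a filter of 1 count (adjusted p = 0.044). Without pairs 2, 3 and 4 in turn it was at -0.35, -0.30 and -0.40 and did not pass (adjusted p = 0.277, 0.184 and 0.239). Pabpc4, its relative, was at 54.6, 71.2, 104 and 83.4 CPM in Mettl3-RNP and 61.1, 96.3, 129 and 98.7 CPM in Pulsed libraries 1 to 4. It was lower in all 4 pairs at -0.29 (SE 0.072, adjusted p = 0.069), and passed with DESeq2 (adjusted p = 0.026) and with a minimum of 10 counts in every library (adjusted p = 0.043), but not with any 1 pair left out (adjusted p = 0.108 or more). Of the 50-base stretches of the Pabpc4 transcript, 67.0% also occur in another annotated gene, most in Gm10110, and 20.7% of those of Pabpc1, most in Gm16580. These copies were counted at no more than 0.671 and 1.77 CPM in any library. How reads that fit more than 1 place were counted is not stated, so the absolute levels of both genes are uncertain.

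Related genes were compared as log2 ratios within each library, for 7 pairs of genes. With 4 pairs of libraries the exact two-sided sign-flip test cannot give a p below 0.125, so no ratio could pass. The ratio of Cnot7 to Cnot8 was lower in Mettl3-RNP in 4 of 4 pairs, by -0.33, -0.13, -0.48 and -0.46, a mean of -0.35 ± 0.159 (SD, n = 4, exact p = 0.125, adjusted over the 7 ratios p = 0.438). The Mettl3-RNP cells held 0.785 times the Pulsed ratio. The ratio of Dis3 to Dis3l was also lower in 4 of 4 pairs, at a mean of -0.21 ± 0.268 (SD, n = 4, exact p = 0.125, adjusted p = 0.438), but pair 3 alone was at -0.60 and pair 4 at -0.00012. The remaining ratios went in both directions across pairs. Their means were 0.10 ± 0.188 for Cnot6 to Cnot6l, 0.20 ± 0.184 for Tob1 to Tob2, -0.20 ± 0.369 for Dcp1a to Dcp1b, -0.04 ± 0.0804 for Xrn1 to Xrn2 and -0.11 ± 0.216 for Pabpc1 to Pabpc4 (SD, n = 4), each with an adjusted p of 0.5 by the exact test. The 95% interval from the t distribution, not adjusted for the 7 ratios, ran from -0.60 to -0.096 for Cnot7 to Cnot8 and included 0 for the other 6, the narrowest being that of Xrn1 to Xrn2, from -0.17 to 0.09. No 50-base stretch is shared between the genes of any of these pairs.

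**Figure D3:**
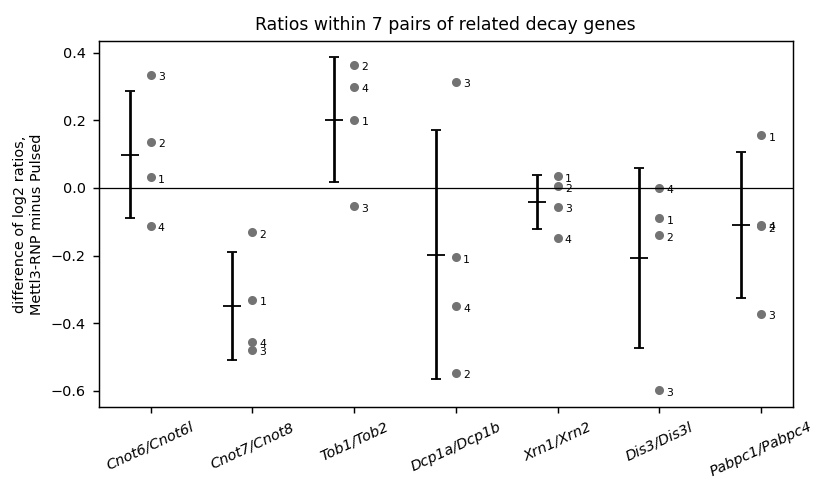
Difference of log2 ratios between Mettl3-RNP and Pulsed (y axis) for 7 pairs of related decay genes, with the 4 pairs of libraries as numbered points and the mean and SD beside them. The points of Cnot7/Cnot8 all lie below 0, at a mean of -0.35.

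Decay genes differed more between replicate numbers than between groups. Replicate number held a median of 84.9% of a member's sum of squares of log2 CPM and group 4.81%, beside 84.4% and 5.35% over tested genes at 10 CPM or more. There are more replicate numbers than groups, so noise alone would give replicate number the larger share. Replicate number held more than group in 42 of 45 members, beside 7773 of the 8504 tested genes at 10 CPM or more. The other members were Cnot10, Exosc4 and Pabpc1. The highest mean of a pair was 1.44 times the lowest at the median member, against 1.59 times at the median of those tested genes, and more than 2 times in 7 members (15.6%, against 27.4%). Replicate 3 held the highest level of 28 of 45 members (62.2%), against 42.4% of tested genes at 10 CPM or more.

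Btg1 spanned the widest range, 11.2-fold between replicates 3 and 4. The 10 immediate early genes, which cells switch on within minutes of a stimulus or of handling, spanned 214 to 12558 CPM in Mettl3-RNP and 147 to 11821 CPM in Pulsed cells as a sum, highest in replicate 3 and lowest in replicate 4 of both groups, and none of them passed the test between groups. Dis3 followed at 4.33-fold and Exosc2 at 2.88-fold, both highest in replicate 3 and lowest in replicate 1. Cnot7 and Exosc9 had the same order at 2.09-fold and 2.05-fold. Cnot3, in contrast, was lowest in replicate 3, at 71.9 and 85.3 CPM against 113 to 170 CPM in the other libraries, as were Dcp2 (27.5 and 23.8 CPM) and its activator Edc3. The genes of 1 complex thus did not share an order over the replicates. What set replicate 3 apart is not given in the labels.

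**Figure D4:**
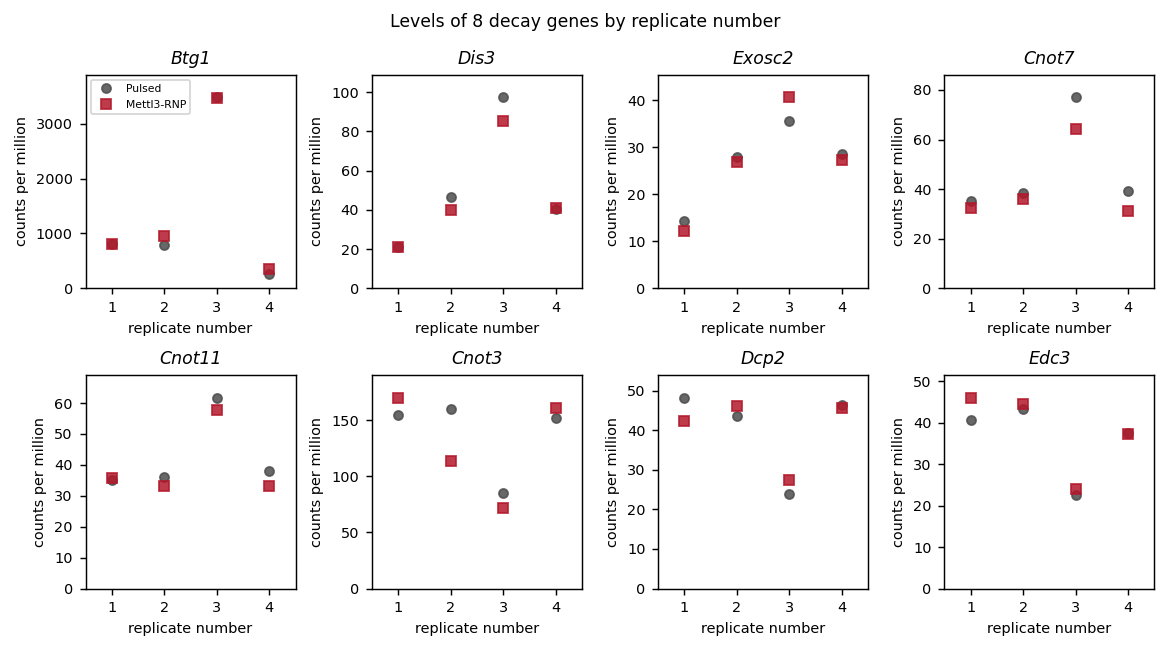
CPM (y axis, from 0) of 8 decay genes by replicate number (x axis) in Pulsed (circles) and Mettl3-RNP (squares) libraries. Both libraries of a number lie together, with replicate 3 highest for Btg1, Dis3, Exosc2, Cnot7 and Cnot11 and lowest for Cnot3, Dcp2 and Edc3.

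Levels of different genes were set side by side as CPM per kilobase of the canonical transcript. In Pulsed cells Pabpc1 stood first at 752 ± 67.8, then Btg1 at 267 ± 290.0 and Ddx6 at 72.9 ± 19.9 CPM per kilobase (SD, n = 4), and the same order was found per kilobase of all annotated exons, a length chosen after seeing the data. The SD of Btg1 exceeded its mean, so that Btg1 and Ddx6 do not differ beyond their spread. The other 42 members lay between 3.60 (Dcp1b) and 39.0 (Cnot3) CPM per kilobase. The enzyme of decapping was among the scarcest, by this length, with Dcp2 at 4.68 ± 1.30, while Xrn2 at 22.6 ± 1.72 stood above Xrn1 at 8.32 ± 0.534 and Cnot8 at 28.6 ± 1.39 above Cnot7 at 10.1 ± 4.21 CPM per kilobase. The order depended on the length used. Exosc5 ranked 10 by the canonical transcript and 41 by all annotated exons, Cnot3 ranked 4 and 12, Dcp2 ranked 44 and 34, and the Spearman correlation of both orders over the 45 genes was 0.671.

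Transcripts of the decay machinery were rich in exon junctions. The median member had 14 exons and 3.98 junctions per kilobase, against 9 exons and 2.62 junctions per kilobase over 12056 tested protein-coding genes. Members with more junctions per kilobase tended to have lower fold changes, with a Spearman correlation of -0.483 over 45 members and -0.185 over the 12056 genes, a description across genes that share the same 8 libraries. The letters GGACT, a common form of the m6A consensus, were searched on the sense strand of the canonical transcripts and occurred in 44 of 45 members (97.8%) and 93.8% of the 12056 genes, at a median of 0.9 and 1.04 per kilobase. Their density had a correlation of 0.081 with the log2 fold change over members and 0.0835 over all. Exosc5 and Pabpc1 hold 1 occurrence each and Pabpc4 none. Both occurrences are shown with their flanks because these genes had the lowest fold changes of the members, with the searched letters in capitals.
Exosc5: cctgtgccctGGACTctgatggaaa
Pabpc1: agtcctcgctGGACTgctcagggtg
In GRCm39 the first lies at chr7:25364928-25364952, plus strand, in coding sequence of exon 4, and the second at chr15:36599208-36599232, minus strand, in coding sequence of exon 9. The study mapped m6A in resting and stimulated mast cells with a separate sequencing assay, whose sites were not used here. Whether these adenosines are methylated was thus not examined.

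Genes around the machinery were followed as 3 further lists. Of 44 further subunits and cofactors, 43 were tested and 2 passed the test, both higher, beside 2.35% of all tested genes called higher and 1.39% called lower. Angel2, a relative of the CCR4 nucleases, was at 83.5, 65.1, 77.3 and 83.5 CPM in Mettl3-RNP and 61.5, 52.0, 55.9 and 58.3 CPM in Pulsed libraries 1 to 4. The groups did not overlap, and the log2 fold change was 0.44 (SE 0.067, adjusted p = 0.02). Pelo, which rescues stalled ribosomes, was at 8.45, 9.65, 8.50 and 12.9 CPM in Mettl3-RNP and 5.68, 7.15, 4.28 and 7.45 CPM in Pulsed libraries 1 to 4, again without overlap, and rose by a log2 fold change of 0.69 (SE 0.129, adjusted p = 0.033). Exosc6 was listed at 0 in all libraries, and all of its exonic bases are shared with Aars1 on the same strand, so this 0 is no measure of its level. The nuclear deadenylase Toe1 was higher in all 4 pairs at 0.39 but missed the threshold (adjusted p = 0.053). Of the exonic bases of Pelo 56.4% are shared with Gm49395 on the same strand or Gm10734 on the opposite strand. Of those of Toe1 56.7% are shared with Mutyh and Tesk2 on the opposite strand. Reads in bases shared on the same strand cannot be fully told apart. Whether reads of opposite strands were kept apart depends on the strand setting, which is not given. The median of the list was -0.04.

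Among 19 RNA-binding recruiters of decay, 3 rose and none fell, beside the same 2.35% and 1.39% over all tested genes. The m6A readers Ythdf2 and Ythdf1 rose by 0.55 (SE 0.090, adjusted p = 0.024) and 0.47 (SE 0.081, adjusted p = 0.028) on the log2 scale, while the third reader of the family, Ythdf3, was at 0.05 (adjusted p = 0.743). Ythdf2 was at 89.3, 129, 159 and 126 CPM in Mettl3-RNP and 72.5, 78.6, 115 and 75.9 CPM in Pulsed libraries 1 to 4. Every pair was higher, and the groups overlapped through replicates 1 and 3. Tnrc6a, the GW182 protein that joins Argonaute to CCR4-NOT in miRNA silencing, was at 142, 129, 152 and 143 CPM in Mettl3-RNP and 106, 98.0, 114 and 95.8 CPM in Pulsed libraries 1 to 4. Its groups did not overlap, and it rose by 0.45 (SE 0.068, adjusted p = 0.02). Its relatives Tnrc6c, higher in 3 of 4 pairs, and Tnrc6b were at 0.45 (adjusted p = 0.081) and 0.12 (adjusted p = 0.469). The Argonaute gene Ago3 was lower in all 4 pairs at -0.33 (adjusted p = 0.081), and Ago1 and Ago2 were at -0.19 and 0.12 (adjusted p = 0.230 and 0.333). The recruiters of AU-rich mRNAs Zfp36, Zfp36l1 and Zfp36l2 were at -0.02, -0.01 and -0.26 (adjusted p = 0.978, 0.972 and 0.115), and the median of the list was -0.01.

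The third list held 11 genes of RNase P/MRP with its adaptor Rida, a route that cleaves some m6A transcripts bound by YTHDF2. Of the 11, 2 rose and none fell (2.35% and 1.39% over all tested genes). They were Pop7, a subunit that binds the RNA component, and Rpp25l, a relative of its partner subunit. Pop7 was at 12.7, 20.3, 36.8 and 15.9 CPM in Mettl3-RNP and 9.0, 9.61, 13.1 and 11.1 CPM in Pulsed libraries 1 to 4, a log2 fold change of 0.90 (SE 0.174, adjusted p = 0.034). Rpp25l was at 12.1, 11.4, 10.1 and 11.4 CPM in Mettl3-RNP and 8.80, 6.47, 5.07 and 7.72 CPM in Pulsed libraries 1 to 4 without overlap, a log2 fold change of 0.70 (SE 0.124, adjusted p = 0.03). Rida, the adaptor, was lower in all 4 pairs at -0.57 (adjusted p = 0.077), with no overlap of the groups, and shares 30.5% of its exonic bases with Gm49188 on the opposite strand. The median of the list was 0.02. The calls of the 7 genes that rose across the pathway lists (Angel2, Pelo, Tnrc6a, Ythdf1, Ythdf2, Pop7 and Rpp25l) were lost in part with fewer pairs, while each gene was higher in 4 of 4 pairs. Without replicate 2 none of the 7 passed (adjusted p = 0.09 to 0.157), and 26 of 14904 tested genes passed at all. Without replicate 1 Ythdf2 and Pop7 passed, without replicate 3 Angel2, Tnrc6a, Ythdf1 and Ythdf2, and without replicate 4 Pop7 and Rpp25l. Without the replicate block none passed (adjusted p = 0.825 or more).

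**Figure D5:**
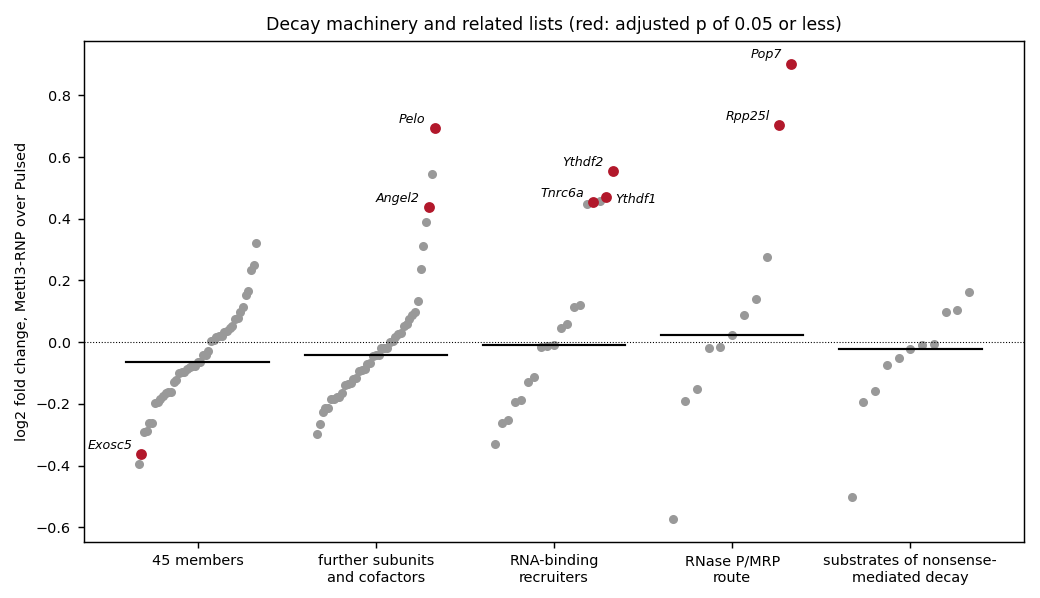
Log2 fold change, Mettl3-RNP over Pulsed (y axis), of each tested gene of the decay machinery and of 4 related lists, sorted within a list, with the median as a bar and genes with an adjusted p of 0.05 or less in red. The 45 members stay between -0.40 and 0.32, and all 7 named genes of the other lists lie above 0.4.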

How the data were processed

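Whole-number counts per Ensembl gene were deposited by the authors, 1 table per library with 56748 IDs and no normalization, for 8 libraries of BMMCs (4 Mettl3-RNP, 4 Pulsed). The submitters' processing notes name FastQC 0.11.9, HISAT2 2.2.1, featureCounts 2.0.1 and the build GRCm39. Strand and multimapping settings are not given in the sources used here. GENCODE mouse release M39 named 56017 IDs (98.7%), and unnamed IDs held at most 0.113% of a library's counts.

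The function filterByExpr of edgeR 4.0.16 set the filter on low counts (about 10 in at least 4 libraries), and TMM scaled the libraries. The quasi-likelihood test (glmQLFit and glmQLFTest, R 4.3.3) had the replicate number as a block. P-values were adjusted by Benjamini-Hochberg over 14942 genes, and a gene was called at an adjusted p of 0.05 or less. Standard errors were derived from the test statistic, and intervals are 95% from its t distribution. CPM is the count per 1000000 counts with TMM library sizes, and log2 CPM for pair differences and ratios used a prior count of 2. The scripts were tested on simulated data. DESeq2 1.42.0 and limma 3.58.1 were used for alternatives.

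The pairing rests on the series text, which names 4 mice, and on the titles, which number each group from 1 to 4. No label ties a number to a mouse. After group means were removed, libraries of the same number correlated at 0.825, 0.489, 0.879 and 0.765 over 11985 genes, and at most at 0.183 between different numbers. Replicates of a group differed far beyond sampling noise (chi-square per degree of freedom of 58.3 or more). Reads carry no molecular identifiers, and p-values measure the spread between these libraries.

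The members, the lists and the rule for named genes were chosen with earlier results of these data known. Named are the members that passed, the largest difference of each arm, the catalytic subunits and helicases, members whose call changed under an alternative, and, of the other pathway lists, the genes that passed or otherwise the largest difference. From the marker lists, 1 gene was left out before the sums and is not reported here. Sequences are from GRCm39 and the study's list of guides.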

Additional observations from a re-analysis of the deposited data

Results flagged for a closer look

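In 92 groups of 4 libraries (45 members and Mettl3 in each group), 7 values of 5 genes lay far from the other 3 by Dixon's criterion. Chance alone flags about 1 in 20 independent groups, or 4.6 of 92. These groups come from the same 8 libraries and are not independent, so that number is only a rough guide. All 7 values were from replicate 3. Cnot7 was at 64.3 CPM in Mettl3-RNP library 3, with the others at 31.0 to 36.0, and at 77.0 CPM in Pulsed library 3, with the others at 35.0 to 39.1. Cnot11 was at 57.7 CPM in Mettl3-RNP library 3, with the others at 33.2 to 35.7, and at 61.7 CPM in Pulsed library 3, with the others at 35.1 to 38.0. Btg1 was at 3483 CPM in Pulsed library 3, with the others at 269 to 810. Cnot3 was at 85.3 CPM in Pulsed library 3, with the others at 152 to 160. Mettl3 was at 11.2 CPM in Pulsed library 3, with the others at 24.5 to 26.5.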

How the results depend on the processing

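Members past an adjusted p of 0.05 depended on the setting. Lower members numbered 0 without the replicate block, with DESeq2 size factors and with library sizes alone, 2 with at least 10 counts in every library (Exosc5 and Pabpc4), 3 with DESeq2 (Exosc5, Pabpc1 and Pabpc4) and 15 after removeBatchEffect and limma-trend, which also called 3 higher and counts no degrees of freedom for the removed block. As shares, these are 4.44%, 6.67% and 40% of members, beside 7.67%, 9.70% and 30.5% of all genes in the same 3 settings. With 1 pair left out they numbered 0 to 1, 0 without each of replicates 2, 3 and 4 and Pabpc1 without replicate 1. Exosc5 kept its call with limma-voom (adjusted p = 0.049) and with the spread estimated by legacy=FALSE (0.042), an alternative chosen after seeing the data. The planned legacy=TRUE is the default of this edgeR version and was no separate run. The median of the members was -0.12 without replicate 1 and -0.074 to -0.052 without each of replicates 2, 3 and 4.

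Over all genes, calls numbered 0 without the replicate block (579 at an unadjusted p under 0.05, and 1 of the members), 993 with a filter of 1 count, 959 with at least 10 counts in every library, 1449 with DESeq2, 4564 after removeBatchEffect and limma-trend, and 26 (without replicate 2) to 383 with 1 pair left out. Together with a 1.5-fold change they numbered 0, 579, 505 and 973 without the block, with 1 count, with DESeq2 and after removeBatchEffect, and 26 to 331 with 1 pair left out. Mettl3 was at -1.31 without the block (adjusted p = 0.744) and at -1.42 to -1.22 with 1 pair left out, with an adjusted p of at most 0.038 each time. No paralog ratio changed direction.

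Members near 0 changed sign. Without the block, Dcp2 was at -0.0056 and Exosc2 at 0.0025, and with library sizes alone Lsm1 was at 0.0037. With 1 pair left out, Cnot2 ran from -0.069 to 0.061, Cnot4 from -0.085 to 0.11, Cnot6 from -0.13 to 0.0083, Pan2 from -0.014 to 0.11, Dcp1a from -0.016 to 0.042, Dcp2 from -0.048 to 0.048, Exosc3 from -0.040 to 0.021, Upf3b from -0.11 to 0.17, Smg5 from -0.0073 to 0.091 and Smg6 from -0.093 to 0.061. The cause of these changes was not tested. Intervals of the members bound changes to 1.5-fold except for Pabpc1, and changes inside an interval could not be resolved with 4 pairs.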
